A study of Arabidopsis thaliana with 60 samples.

Results

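The response of Arabidopsis thaliana stems to high GPT2 expression in the 35S GPT2 line was set against the response recorded for the gpt2-1 line, as a difference of effects for each gene: 35S GPT2 minus its own wild type, less gpt2-1 minus its own wild type. It uses 12 of the 15 samples of the series, 3 in each of 4 groups, and 17034 of 37967 genes, those that averaged at least 2 CPM, counts scaled to a common library total. The 35S GPT2 plants express GPT2 from the 35S promoter, a viral promoter active in most tissues, and are set against a second set of the wild type Col-0 (Col-0 set 2). The gpt2-1 plants are a mutant line of GPT2 and are set against the first set of the same wild type (Col-0 set 1). All were stems of plants grown for 9 to 10 weeks in Noren medium at 0.5 strength, with RNA from a plant column kit and stranded TruSeq mRNA libraries. The study asks how GPT2 expression relates to lignin synthesis. The labels name biological replicates but neither how many plants each held nor whether a line is a single transformant, so p-values measure the spread between these samples. Each line came with its own wild type set, so line and set cannot be told apart in the difference.

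GPT2 carries glucose 6-phosphate across the plastid envelope in exchange for phosphate, which supplies starch synthesis and the oxidative pentose phosphate pathway in plastids that make no sugar of their own. Stems put much of their carbon into the secondary walls of vessels and fibres, built from cellulose, xylan and lignin. A cascade of NAC and MYB transcription factors switches these wall genes on together, and lignin starts from phenylalanine, made in plastids, through enzymes that include HCT. Nitrate and sulfate assimilation, and the glucosinolates built from amino acids, also draw on plastid carbon skeletons and reducing power.

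Library totals were 3827816 to 12536593 counts in 35S GPT2, 5258309 to 31713084 in Col-0 set 2, 21352999 to 22618598 in gpt2-1 and 16591700 to 24150608 in Col-0 set 1. Replicates were more alike in the gpt2-1 comparison, where the mean rank correlation of a library with the others of its group was 0.996 to 0.997, than in the 35S GPT2 comparison, where it was 0.942 to 0.978. The biological coefficient of variation estimated by edgeR was 0.0440 in the gpt2-1 comparison and 0.224 in the 35S GPT2 comparison, so much smaller effects passed the test in gpt2-1. In 5 of the tables (35S GPT2 replicates 2 and 3 and all of Col-0 set 2) counts were read in the row order of the first 35S GPT2 table, and the results below rest on that reading. Read against their own gene labels, 0 of 23740 genes passed edgeR's test of the difference (6886 at an unadjusted p under 0.05). Some genes that overlap an exon of the other strand had no counts in the libraries labelled gpt2-1 and in Col-0 set 1, while others, such as BCAT4, were well counted there. A gene of the first kind is the jasmonate regulator MYC2, with 48.2, 36.2 and 40.1 CPM in 35S GPT2 and 76.9, 57.1 and 59.9 CPM in Col-0 set 2, but 0 in all 6 other libraries. Of the genes named below, IRX1, PCL1, AT5G17630, TCH3, BCAT4, PPCK1, PSAH2, CT-BMY, LAC17, MBF1C, COR15B, SYP111 and APR2 have between 16.8% (IRX1) and 46.4% (APR2) of their exon bases under such exons. These are not all, and others named below overlap such exons too. Only 5 of 10 sulfur limitation genes tested have no such overlap. The same holds for 4 of 5 copper and superoxide dismutase genes and 8 of 12 flavonoid genes. All levels are CPM after TMM scaling, and effects are log2 fold changes, line over its wild type set.

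GPT2 (AT1G61800, chromosome 1, 22824414 to 22826902, plus strand of TAIR10.1) was high in both lines. It stood at 271, 251 and 209 CPM in 35S GPT2, against 6.33, 0.941 and 0.994 CPM in Col-0 set 2. It held 134, 134 and 142 CPM in the libraries labelled gpt2-1, against 1.46, 1.199 and 1.46 CPM in Col-0 set 1, which goes against the label of a mutant line of this gene. In each comparison every line library lay above every wild type library, and replicate 1 of Col-0 set 2 lay above the other Col-0 libraries. The effect was 7.04 in 35S GPT2 (SE 0.56, edgeR adjusted p = 0.000420) and 6.60 in the libraries labelled gpt2-1 (SE 0.09, edgeR adjusted p = 1.32e-25). The difference of the effects was 0.53 (SE 0.59, edgeR adjusted p = 0.584) and did not pass the test. It became 1.32 (edgeR adjusted p = 0.00130) without replicate 1 of Col-0 set 2. Which part of the transcript the reads of the libraries labelled gpt2-1 cover cannot be seen in a count per gene, and whether it is functional was not tested. The native GPT2 promoter is shown because transcripts of this gene rose in both lines, in 35S GPT2 with a second, viral promoter present. It is chr1:22824164-22824463 on the plus strand of TAIR10.1 (RefSeq), from 250 bases before to 50 after the annotated start, and capitals mark a match to the evening element AAAATATCT, a clock-related motif found on either strand in 3.11% of 17026 promoters of tested genes:
GPT2: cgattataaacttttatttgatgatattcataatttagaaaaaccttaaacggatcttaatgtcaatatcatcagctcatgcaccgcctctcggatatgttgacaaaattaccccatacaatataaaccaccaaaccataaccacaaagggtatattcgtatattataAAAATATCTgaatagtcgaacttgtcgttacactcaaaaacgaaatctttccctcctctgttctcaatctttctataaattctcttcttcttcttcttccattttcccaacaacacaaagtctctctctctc

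**Figure D1:**
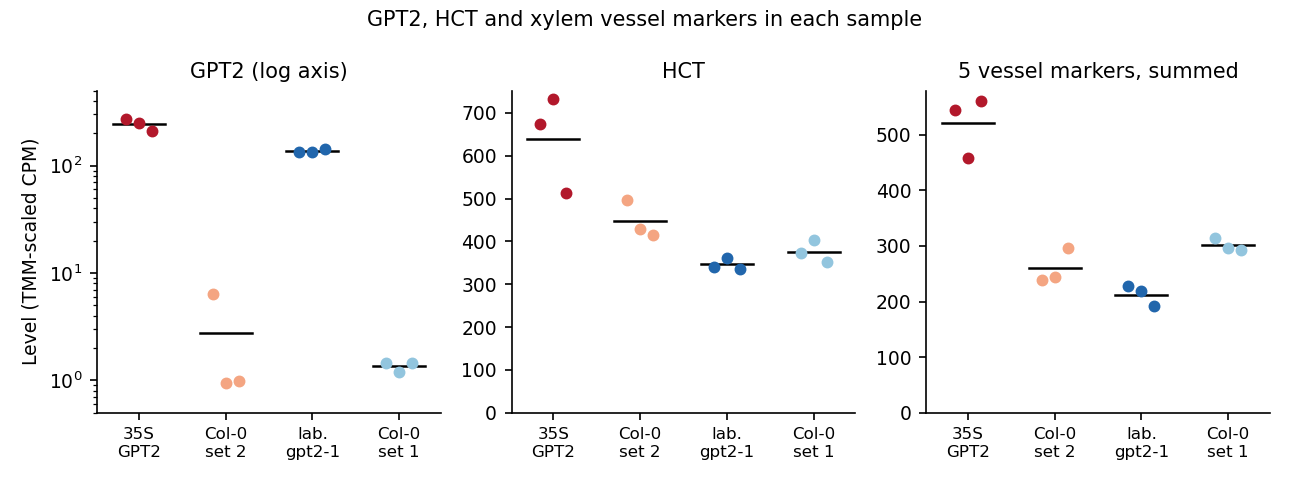
GPT2 (log axis), HCT and the summed level of 5 vessel markers in TMM-scaled CPM for each of the 12 libraries, with bars at the mean of 3. GPT2 was high in 35S GPT2 and in the libraries labelled gpt2-1, HCT was highest in the 35S GPT2 libraries, and the vessel marker sum was 458 to 561 CPM in 35S GPT2, 238 to 296 in Col-0 set 2, 192 to 227 in the libraries labelled gpt2-1 and 293 to 313 in Col-0 set 1.

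HCT (AT5G48930, chromosome 5, 19836299 to 19838235, minus strand) encodes the hydroxycinnamoyl transferase that leads phenylpropanoids toward guaiacyl and syringyl lignin. It held 673, 732 and 513 CPM in 35S GPT2, against 497, 430.0 and 416 CPM in Col-0 set 2. Its levels were 341, 362 and 336 CPM in the libraries labelled gpt2-1, against 372, 403 and 352 CPM in Col-0 set 1. The 35S GPT2 and Col-0 set 2 libraries did not overlap, whereas the libraries labelled gpt2-1 and Col-0 set 1 did. Its effect was 0.51 in 35S GPT2 (edgeR adjusted p = 0.224), short of the threshold of 0.05, and -0.16 in the libraries labelled gpt2-1 (edgeR adjusted p = 0.0108). The difference of the effects was 0.63 (SE 0.18, edgeR adjusted p = 0.0231). The adjusted p of this difference was 0.0526 to 0.0697 when any of 5 libraries was left out: 35S GPT2 replicate 1, labelled gpt2-1 replicates 1 and 3, or Col-0 set 1 replicates 1 and 2.

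Genes of cellulose and xylan synthesis were mostly higher in 35S GPT2 and lower in the libraries labelled gpt2-1 than in their wild type. Nitrate genes mostly fell in 35S GPT2 (7 of 10 tested), and 6 of the 10 rose in the libraries labelled gpt2-1. The difference of effects passed the test for 3560 of 17034 genes (20.9%), 1416 of them positive, that is with the higher effect in 35S GPT2 (8.31%), and 2144 negative (12.6%). Without TMM scaling the split was 2500 positive and 1267 negative, and the median difference over all genes was 0.20 in place of -0.05, so small differences in either direction depend on the scaling. On its own, 35S GPT2 changed 431 genes (2.53%), with 244 higher (1.43%) and 187 lower (1.1%), so that a list with no called gene in 35S GPT2 does not stand apart from all genes by that count. The libraries labelled gpt2-1 changed 9247 (54.3%), with 4786 higher (28.1%) and 4461 lower (26.2%). Without TMM scaling they changed 12279, with 2745 higher and 9534 lower, so rises and falls counted in these libraries depend on the scaling too. The labels name no pairing of the 35S GPT2 and Col-0 set 2 libraries, and the main fits used none. For an alternative fit, replicate numbers were taken to pair them from correlations between libraries. These correlations come from the same counts, so results with replicate as a block are no independent support. With replicate as a block 1145 genes changed in 35S GPT2. For 3642 genes (21.4%) the 35S GPT2 and Col-0 set 2 libraries did not overlap, and for 10079 (59.2%) the libraries labelled gpt2-1 and Col-0 set 1 did not, so separation alone is common in the second comparison. In bulk stems, fewer cells of a type and less RNA per cell cannot be told apart.

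Among genes that changed in both lines, opposite responses outnumbered shared ones. Opposite responses were found for 275 genes (1.61%), and each of the 275 also passed the test of the difference. Effects of opposite sign add up in the difference, so this pass nearly follows from the selection and adds little to the tests of each line. Of these, 185 were higher in 35S GPT2 and lower in the libraries labelled gpt2-1 (1.09%), and 90 were lower in 35S GPT2 and higher in the libraries labelled gpt2-1 (0.528%). Shared responses were found for 60 genes (0.352%), 16 higher in both (0.0939%) and 44 lower in both (0.258%), and for 34 of the 60 the size of the effects differed as well. With replicate as a block there were 577 opposite and 211 shared genes. Of 12267 genes without an exon base under an opposite-strand exon, 228 were opposite and 55 shared. The genes changed in both lines are 77.7% of those changed in 35S GPT2 (63.8% opposite and 13.9% shared) and 3.62% of those changed in the libraries labelled gpt2-1 (2.97% and 0.649%). Of the 3560 genes, 2890 had changed in the libraries labelled gpt2-1 only, 87 in 35S GPT2 only, 309 in both and 274 in neither.

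The effects were larger in 35S GPT2 for 311 of the 335 genes that changed in both lines. The median size was 1.11 in 35S GPT2 and 0.49 in the libraries labelled gpt2-1 on the log2 scale. The 185 genes had a median effect of 1.05 in 35S GPT2 and -0.42 in the libraries labelled gpt2-1, and the 90 genes had -1.30 and 0.58. Since an effect had to be larger to pass in 35S GPT2 (median SE 0.24 over all genes tested) than in the libraries labelled gpt2-1 (0.08), the sizes are not those of an unselected set. The number of opposite genes depends on single libraries of the 35S GPT2 comparison: 69 genes were opposite without 35S GPT2 replicate 1, 185 without replicate 2 and 120 without replicate 3, and without Col-0 set 2 replicates 1, 2 and 3 there were 351, 157 and 138.

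**Figure D2:**
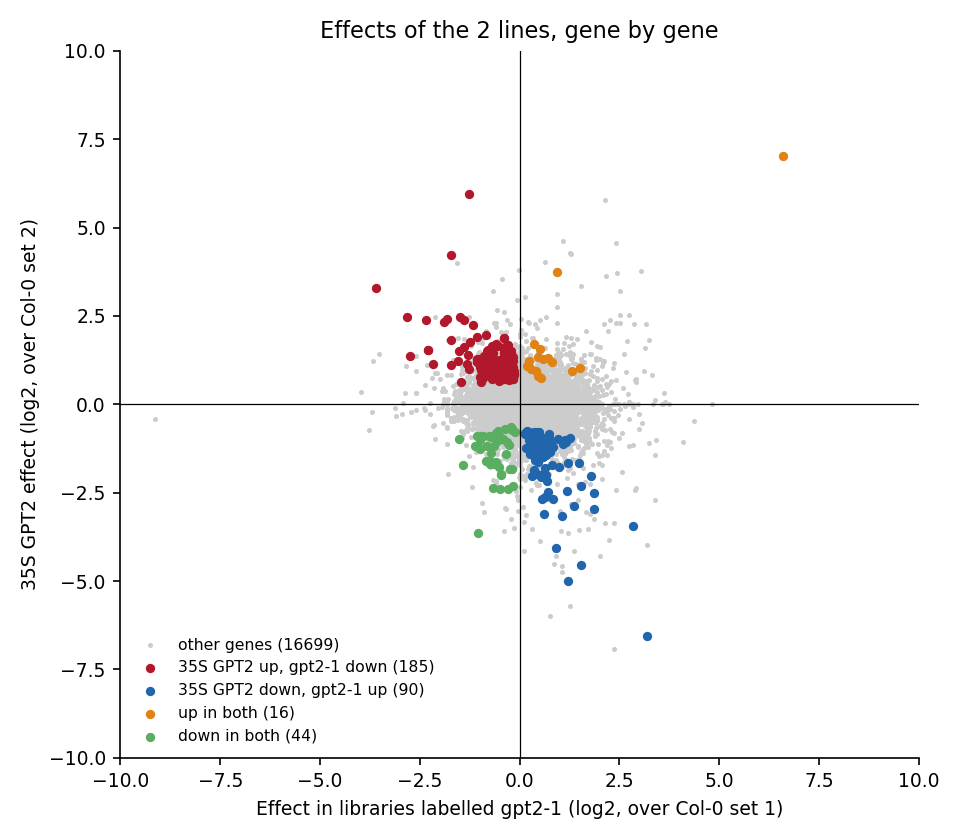
Log2 effect in 35S GPT2 (y axis, over Col-0 set 2) against log2 effect in the libraries labelled gpt2-1 (x axis, over Col-0 set 1) for the 17034 genes tested. Coloured points mark the 185 and 90 genes with opposite responses and the 16 and 44 with shared ones, and all other genes are grey.

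Genes that build the cellulose and xylan of secondary walls mostly rose in 35S GPT2 and fell in the libraries labelled gpt2-1. Of 22 genes tested, 18 rose in 35S GPT2 (22 with replicate as a block, 8 without 35S GPT2 replicate 1) and none fell, while 19 fell in the libraries labelled gpt2-1 and none rose. The difference was positive for 20 of 22 (13 of the 14 without opposite-strand exon overlap), and 16 of 22 were opposite responders. The median difference was 1.35, against -0.05 over all genes tested, with median effects of 1.05 in 35S GPT2 and -0.31 in the libraries labelled gpt2-1, against 0.00 and -0.00. The count of opposite responders was 7 without 35S GPT2 replicate 1 and up to 17 without another library. The summed level of the vessel markers moved with this group, as the plot of GPT2, HCT and vessel markers shows, and its part in the result was not tested.

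IRX9 encodes a glycosyltransferase that extends the xylan backbone. It stood at 155, 193 and 149 CPM in 35S GPT2, against 63.1, 80.7 and 76.1 CPM in Col-0 set 2. It stood at 76.7, 72.4 and 78.5 CPM in the libraries labelled gpt2-1, against 128, 119 and 117 CPM in Col-0 set 1. In both comparisons the groups did not overlap, with 35S GPT2 above and the libraries labelled gpt2-1 below their wild type. The effects were 1.17 (edgeR adjusted p = 0.00524) and -0.72 (edgeR adjusted p = 8.59e-12), and they differed by 1.84 (SE 0.17, edgeR adjusted p = 6.67e-06). GXM2, a methyltransferase that acts on the glucuronic acid side groups of xylan, held 73.2, 55.5 and 68.8 CPM in 35S GPT2, against 20.1, 19.9 and 23.1 CPM in Col-0 set 2. Levels were 25.3, 22.4 and 27.1 CPM in the libraries labelled gpt2-1, against 42.4, 40.1 and 35.1 CPM in Col-0 set 1. Again neither pair of groups overlapped, and the difference was 2.30 (edgeR adjusted p = 2.76e-06). TBL3, a trichome birefringence-like protein of wall acetylation and cellulose deposition, held 115, 106 and 127 CPM in 35S GPT2, against 46.2, 44.9 and 51.9 CPM in Col-0 set 2. It had 30.1, 30.4 and 29.7 CPM in the libraries labelled gpt2-1, against 40.5, 39.3 and 35.5 CPM in Col-0 set 1. The 35S GPT2 libraries were the highest of the 12, and the effects were 1.28 and -0.40 (edgeR adjusted p = 0.00187 and 6.19e-06).

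FRA8, which takes part in making the reducing end of xylan, held 176, 154 and 171 CPM in 35S GPT2, against 102, 93.5 and 103 CPM in Col-0 set 2. It held 45.1, 48.9 and 46.2 CPM in the libraries labelled gpt2-1, against 84.8, 92.6 and 79.7 CPM in Col-0 set 1. The 35S GPT2 libraries lay above and the labelled gpt2-1 libraries below their own wild type in every case, for a difference of 1.62 (edgeR adjusted p = 3.44e-06). FLA11, a fasciclin-like arabinogalactan protein of fibres, held 982, 998.8 and 1050.5 CPM in 35S GPT2, against 616, 489 and 632 CPM in Col-0 set 2. Its levels were 208, 207 and 209 CPM in the libraries labelled gpt2-1, against 291, 329 and 258 CPM in Col-0 set 1. Its groups did not overlap either, with effects of 0.80 and -0.53 (edgeR adjusted p = 0.0326 and 3.75e-08). The xylan acetyltransferase ESK1 had effects of 1.19 in 35S GPT2 and -0.68 in the libraries labelled gpt2-1, PGSIP3, which adds glucuronic acid to xylan, had 1.22 and -0.67, and IRX15 had 1.196 and -0.26. All of these were opposite responders.

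Calls in 35S GPT2 for the 3 cellulose synthase subunits of secondary walls depended on the setting. Their effects in 35S GPT2 were 0.72 for CESA4, 0.72 for IRX3 and 0.85 for IRX1, against Col-0 set 2 (edgeR adjusted p = 0.0783, 0.0749 and 0.190), whereas with replicate as a block, and in DESeq2, all 22 genes of the list rose. The difference of effects passed for each, at 0.99, 0.85 and 1.12 (edgeR adjusted p = 0.00123, 0.00404 and 0.0249). PARVUS, another glycosyltransferase of the xylan reducing end, did not pass for the difference, at 0.61 (edgeR adjusted p = 0.109).

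**Figure D3:**
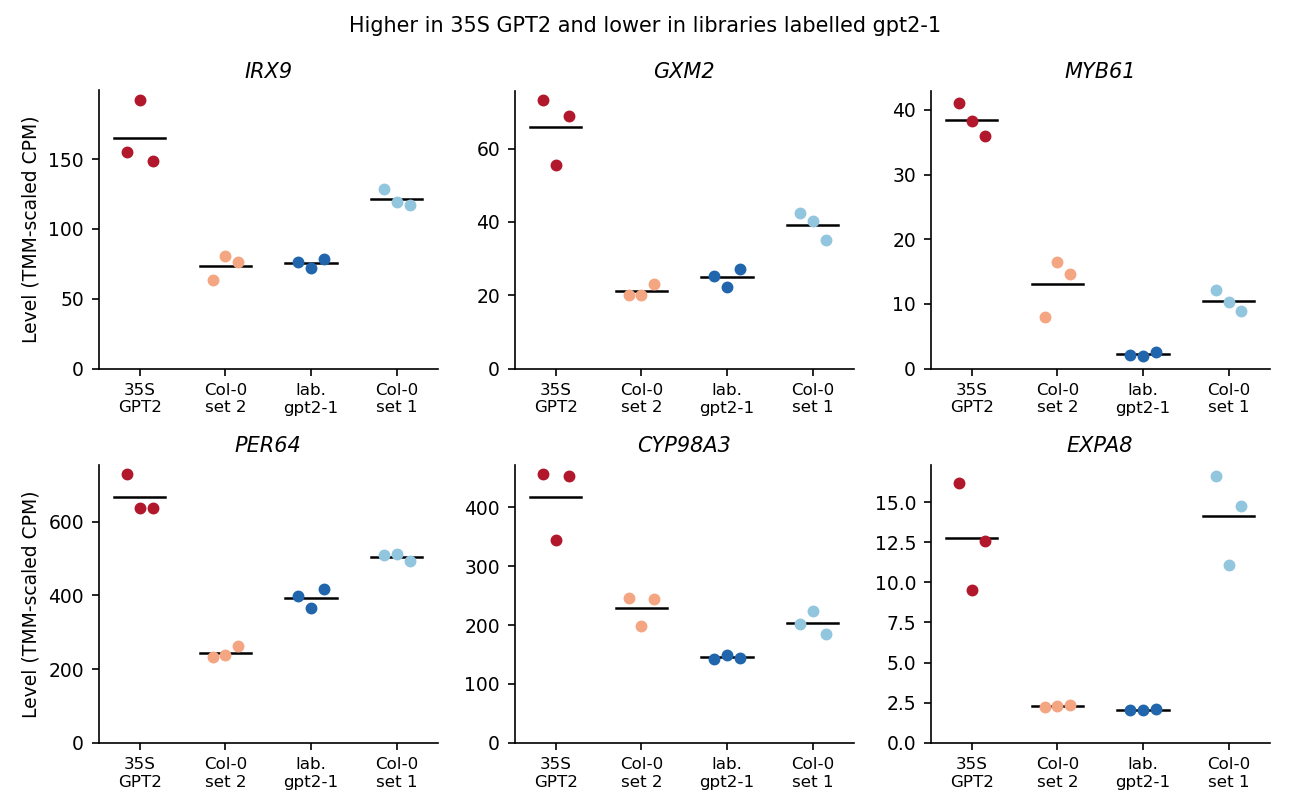
Levels in TMM-scaled CPM of 6 genes that were higher in 35S GPT2 and lower in the libraries labelled gpt2-1 than in their wild type sets, one point per library and bars at the mean of 3. IRX9, GXM2, MYB61, PER64, CYP98A3 and EXPA8 show no overlap between line and wild type in either comparison.

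Regulators of the secondary wall that passed a test moved in the same direction as these wall genes. Of 27 tested, 8 rose in 35S GPT2 (14 with replicate as a block) and none fell, and 18 fell in the libraries labelled gpt2-1 and none rose. The difference was positive for 17 and negative for none, with a median of 1.14, and 8 were opposite responders. With replicate as a block 12 were opposite, without TMM scaling 5 were, and without 35S GPT2 replicate 1 none was and none rose. The difference was positive for 12 to 22 when a library was left out (12 without labelled gpt2-1 replicate 1). MYB61, a MYB activator of wall and carbon allocation genes, stood at 41.1, 38.3 and 36.0 CPM in 35S GPT2, against 8.01, 16.5 and 14.6 CPM in Col-0 set 2. It stood at 2.07, 2.01 and 2.48 CPM in the libraries labelled gpt2-1, against 12.2, 10.3 and 8.97 CPM in Col-0 set 1. It was the regulator with the largest difference among those described, 3.76 (SE 0.31, edgeR adjusted p = 3.13e-06), with every 35S GPT2 library above and every labelled gpt2-1 library below its wild type.

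MYB46, a master switch of the wall programme, held 43.8, 34.7 and 40.6 CPM in 35S GPT2, against 5.96, 18.9 and 15.99 CPM in Col-0 set 2. Levels were 18.1, 14.7 and 18.8 CPM in the libraries labelled gpt2-1, against 19.9, 22.03 and 18.6 CPM in Col-0 set 1. The 35S GPT2 libraries were the highest, and replicate 1 of Col-0 set 2 was the lowest of its group. The difference was 1.70 (edgeR adjusted p = 0.00378). NAC012, a NAC factor that switches on fibre walls, held 121, 122 and 101 CPM in 35S GPT2, against 51.6, 65.3 and 66.2 CPM in Col-0 set 2. It had 102, 103 and 94.9 CPM in the libraries labelled gpt2-1, against 119, 129 and 118 CPM in Col-0 set 1. Its effects of 0.90 and -0.33 were opposite, and those of its target NAC073 (0.97 and -0.22) and of the homeodomain factor BLH6 (0.79 and -0.68) were too. MYB4, a repressor of the lignin pathway gene C4H, also belonged to the opposite responders, with 72.4, 78.8 and 73.1 CPM in 35S GPT2, against 46.9, 51.0 and 47.9 CPM in Col-0 set 2. It held 5.83, 6.31 and 6.06 CPM in the libraries labelled gpt2-1, against 16.5, 17.61 and 15.02 CPM in Col-0 set 1. The rise in 35S GPT2 was small (0.62, edgeR adjusted p = 0.0488) beside the fall in the libraries labelled gpt2-1 (-1.48, edgeR adjusted p = 2.29e-12). MYB63, an activator of lignin genes, and KNAT7, a homeodomain regulator of wall thickness, were the remaining opposite responders of the list. XND1, which opposes xylem differentiation, had a difference of -0.55 and did not pass (edgeR adjusted p = 0.0639).

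Monolignol genes gave counts that depend on the processing. Of 18 tested, 4 rose in 35S GPT2 and none fell, and in the libraries labelled gpt2-1 4 rose and 7 fell. With replicate as a block 13 rose and 1 fell in 35S GPT2, DESeq2 gave 12 and 1, and without 35S GPT2 replicate 1 none rose. The difference was positive for 10 and negative for 2, with a median of 0.55, and 2 were opposite responders (7 with replicate as a block, 5 without TMM scaling and none without 35S GPT2 replicate 1). They were CYP98A3, which hydroxylates the ester that HCT makes, and C4H, the second enzyme of the pathway. CYP98A3 held 457, 345 and 453 CPM in 35S GPT2, against 245, 198 and 244 CPM in Col-0 set 2. Its levels were 143, 148 and 144 CPM in the libraries labelled gpt2-1, against 203, 224 and 185 CPM in Col-0 set 1. Neither pair overlapped, and the difference was 1.36 (SE 0.18, edgeR adjusted p = 0.000128). C4H held 1249, 1184 and 1266 CPM in 35S GPT2, against 756, 630.0 and 752 CPM in Col-0 set 2. It stood at 637, 632 and 595 CPM in the libraries labelled gpt2-1, against 677, 721 and 678 CPM in Col-0 set 1. The 35S GPT2 libraries were the highest of the 12, and the effects were 0.79 and -0.19 (edgeR adjusted p = 0.0305 and 0.00119).

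PAL2, a phenylalanine ammonia-lyase at the entry of the pathway, was a shared responder instead. It held 343, 339.9 and 314 CPM in 35S GPT2, against 199.6, 193 and 208 CPM in Col-0 set 2. Levels were 986, 968 and 889 CPM in the libraries labelled gpt2-1, against 614, 663 and 629 CPM in Col-0 set 1. Both lines lay above their wild type, by 0.73 and 0.54, and the difference of 0.15 did not pass (edgeR adjusted p = 0.456). CCR2, a cinnamoyl-CoA reductase known mostly from defence, was nearly absent from the 35S GPT2 comparison, with 1.16, 0.679 and 0.626 CPM in 35S GPT2, against 2.79, 0.588 and 1.23 CPM in Col-0 set 2. It had 123, 124 and 122 CPM in the libraries labelled gpt2-1, against 27.1, 28.5 and 25.5 CPM in Col-0 set 1. Its effect in the libraries labelled gpt2-1 was 2.14 and the difference -2.69 (edgeR adjusted p = 0.000782). For 4CL1, CCoAOMT1 and the esterase LysoPL2 the differences were 0.90, 1.05 and 0.86 and passed (edgeR adjusted p = 0.00112, 0.00137 and 0.00336).

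Laccases and peroxidases that polymerize lignin moved in both directions. Of 14 tested, 5 rose in 35S GPT2 and none fell, 4 rose and 9 fell in the libraries labelled gpt2-1, and 5 were opposite responders. Without 35S GPT2 replicate 1, 2 rose in 35S GPT2 and 2 were opposite. The difference was positive for 8 and negative for 3, with a median of 0.97. PER64, a peroxidase linked to lignin of the Casparian strip, held 729.8, 636 and 637 CPM in 35S GPT2, against 231, 239 and 264 CPM in Col-0 set 2. It held 399, 366 and 417 CPM in the libraries labelled gpt2-1, against 509, 512 and 494 CPM in Col-0 set 1. The groups did not overlap, and the effects were 1.45 and -0.40 (edgeR adjusted p = 0.00128 and 2.53e-07). LAC12 held 147, 145 and 127 CPM in 35S GPT2, against 54.0, 59.6 and 50.01 CPM in Col-0 set 2. Its levels were 56.0, 55.2 and 62.1 CPM in the libraries labelled gpt2-1, against 106, 117 and 87.0 CPM in Col-0 set 1. The laccase LAC10 held 43.7, 37.4 and 29.2 CPM in 35S GPT2, against 19.4, 13.6 and 13.1 CPM in Col-0 set 2. Both laccases were higher in every 35S GPT2 library and lower in every labelled gpt2-1 library than in their wild type, and their differences were 2.197 and 2.27 (edgeR adjusted p = 2.34e-06 and 5.18e-05). LAC2 and LAC17 were the other opposite responders. IRX12, a main stem laccase, had an effect of 0.86 in 35S GPT2 (edgeR adjusted p = 0.0683) and -0.02 in the libraries labelled gpt2-1. The peroxidase AT5G64120 went the other way, with 2.31, 1.13 and 1.64 CPM in 35S GPT2, against 2.61, 3.70 and 4.53 CPM in Col-0 set 2. It stood at 119, 116 and 121 CPM in the libraries labelled gpt2-1, against 35.3, 35.2 and 31.7 CPM in Col-0 set 1. Its difference was -2.90 (edgeR adjusted p = 5.33e-06). Every labelled gpt2-1 library lay above its wild type. Every 35S GPT2 library lay below its own, at low levels and without passing the test of that line.

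The promoters of CYP98A3 and LAC10 are shown because they hold AC elements, motifs bound by MYB factors in lignin genes. CYP98A3 lies at chr2:17060603-17060902 on the minus strand and LAC10 at chr5:72042-72341 on the plus strand (TAIR10.1, RefSeq), each from 250 bases before to 50 after the annotated start. Capitals mark ACCAACC in both and, in CYP98A3, the sugar response element TATCCA, searched on both strands and found in 16.7% of promoters of tested genes:
CYP98A3: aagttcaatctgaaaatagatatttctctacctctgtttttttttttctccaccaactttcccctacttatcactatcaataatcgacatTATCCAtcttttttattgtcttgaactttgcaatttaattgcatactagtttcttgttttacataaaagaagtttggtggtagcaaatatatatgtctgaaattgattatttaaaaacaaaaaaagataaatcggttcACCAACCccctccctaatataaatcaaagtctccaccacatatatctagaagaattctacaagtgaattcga
LAC10: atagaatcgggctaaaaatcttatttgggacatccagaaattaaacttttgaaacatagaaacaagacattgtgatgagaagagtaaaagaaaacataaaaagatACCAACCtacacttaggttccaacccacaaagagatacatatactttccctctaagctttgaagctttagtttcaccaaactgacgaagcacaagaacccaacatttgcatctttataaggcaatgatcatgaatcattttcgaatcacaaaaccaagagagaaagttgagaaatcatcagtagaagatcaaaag
AC elements (ACCTACC or ACCAACC, either strand) were found in 808 of 17026 promoters of tested genes (4.75%). They were in 8 of 18 monolignol promoters (44.4%) and 3 of 14 of the polymerization list (21.4%), in 0 of 22 cellulose and xylan promoters and in 2 of 27 regulators (7.41%). Among opposite responders they were in 16 of the 185 higher in 35S GPT2 (8.65%) and in 10 of the 90 lower (11.1%). Among shared responders they were in 3 of 16 higher and 2 of 44 lower genes. In the promoters shown no match overlaps another, and a match describes letters in this window, not a binding site.

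Genes of cell expansion included large opposite responses. Of 9 alpha-expansins tested, proteins that loosen walls, 5 rose in 35S GPT2 and 8 fell in the libraries labelled gpt2-1, none moved the other way, and the 5 were opposite responders (3 without TMM scaling, 1 without 35S GPT2 replicate 1). The median difference was 2.13. EXPA8 held 16.2, 9.51 and 12.6 CPM in 35S GPT2, against 2.23, 2.29 and 2.34 CPM in Col-0 set 2. Levels were 2.01, 2.06 and 2.11 CPM in the libraries labelled gpt2-1, against 16.6, 11.1 and 14.8 CPM in Col-0 set 1. The wild type sets differed as much as the lines, with Col-0 set 2 at the level of the libraries labelled gpt2-1 and Col-0 set 1 at that of 35S GPT2. The difference was 5.27 (SE 0.33, edgeR adjusted p = 7.58e-07). EXPA11 showed a similar arrangement, with 6.61, 7.70 and 7.28 CPM in 35S GPT2, against 2.23, 0.999 and 1.17 CPM in Col-0 set 2. It had 1.91, 1.73 and 2.58 CPM in the libraries labelled gpt2-1, against 12.3, 7.98 and 10.54 CPM in Col-0 set 1. Its difference was 4.77 (edgeR adjusted p = 3.87e-06). EXPA1 held 17.8, 15.2 and 13.5 CPM in 35S GPT2, against 7.82, 4.64 and 4.47 CPM in Col-0 set 2. It held 22.5, 22.5 and 21.7 CPM in the libraries labelled gpt2-1, against 68.5, 59.6 and 58.0 CPM in Col-0 set 1. There too the groups did not overlap, with effects of 1.51 and -1.52, and EXPA4 (0.63 and -0.96) and EXPA5 (1.95 and -0.85) completed the 5.

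Xyloglucan endotransglucosylases, which cut and rejoin wall xyloglucan, were not uniform. Of 16 tested, 2 rose and 2 fell in 35S GPT2 (4 fell with replicate as a block), 10 rose and 4 fell in the libraries labelled gpt2-1, and the difference was positive for 2 and negative for 9 (median -0.65). XTH4 held 229, 167 and 219 CPM in 35S GPT2, against 87.9, 86.5 and 96.4 CPM in Col-0 set 2. Its levels were 169.8, 159 and 161 CPM in the libraries labelled gpt2-1, against 355, 315 and 319.9 CPM in Col-0 set 1. It behaved like the expansins, with a difference of 2.201 (edgeR adjusted p = 1.83e-06). TCH4, a touch-induced member, held 6.03, 4.98 and 7.20 CPM in 35S GPT2, against 23.7, 16.5 and 18.9 CPM in Col-0 set 2. It stood at 4458, 4169 and 4229 CPM in the libraries labelled gpt2-1, against 1752, 1782 and 1859 CPM in Col-0 set 1. It lay below the wild type in every 35S GPT2 library and above it in every labelled gpt2-1 library, with a difference of -2.88 (edgeR adjusted p = 1.54e-06), and its level differed by far more between the wild type sets than between line and wild type. XTH30 rose in both lines and XTH31 fell in both.

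The largest positive difference among genes named by size belonged to AT3G01345, an uncharacterized protein, through the libraries labelled gpt2-1 alone. It held 116, 104 and 91.4 CPM in 35S GPT2, against 176, 129 and 112 CPM in Col-0 set 2, and these groups overlapped. Levels were 0.424, 0.0558 and 0.0527 CPM in the libraries labelled gpt2-1, against 102, 109.8 and 92.1 CPM in Col-0 set 1, so that the gene was close to 0 in these 3 of the 12 libraries. The difference was 8.67 (edgeR adjusted p = 1.31e-07). AT2G20590, a reticulon family protein, held 42.5, 39.0 and 37.3 CPM in 35S GPT2, against 0.372, 0.764 and 0.614 CPM in Col-0 set 2. It had 0.424, 0.335 and 0.369 CPM in the libraries labelled gpt2-1, against 0.946, 0.661 and 1.11 CPM in Col-0 set 1. Here the 35S GPT2 libraries stood apart from the other 9, and the difference was 7.18 (edgeR adjusted p = 2.24e-07). The neighbouring loci AT5G37940, a zinc-binding dehydrogenase, and AT5G37950, a glycosyltransferase, both were opposite responders, with differences of 6.79 and 4.12 (edgeR adjusted p = 6.67e-06 and 9.79e-05). AT5G24580, of a heavy metal transport family, had effects of 1.82 and -1.71.

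The largest negative difference among genes named by size was that of AT4G38080, a hydroxyproline-rich glycoprotein, with 1.82, 1.13 and 0.782 CPM in 35S GPT2, against 29.6, 16.8 and 17.5 CPM in Col-0 set 2. It held 2.65, 3.35 and 5.38 CPM in the libraries labelled gpt2-1, against 2.37, 1.61 and 1.92 CPM in Col-0 set 1. The Col-0 set 2 libraries were the highest of the 12, and the difference was -4.99 (edgeR adjusted p = 1.69e-05). EXO, an extracellular protein of growth control, held 1.82, 0.679 and 0.391 CPM in 35S GPT2, against 9.87, 6.76 and 7.10 CPM in Col-0 set 2. Its levels were 436, 423 and 429.8 CPM in the libraries labelled gpt2-1, against 109, 106 and 127 CPM in Col-0 set 1. It was opposite in the lines (-2.96 and 1.88), and its level was far higher in Col-0 set 1 than in Col-0 set 2. AT1G65500, AT4G15390 (an acyltransferase) and AT5G03545 (induced by phosphate starvation) were opposite in the same direction, with differences of -4.45, -3.85 and -3.18. AT4G28140, of a family of AP2-type transcription factors, had a difference of -3.74, and its effect in 35S GPT2 did not pass (-1.71, edgeR adjusted p = 0.116).

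**Figure D4:**
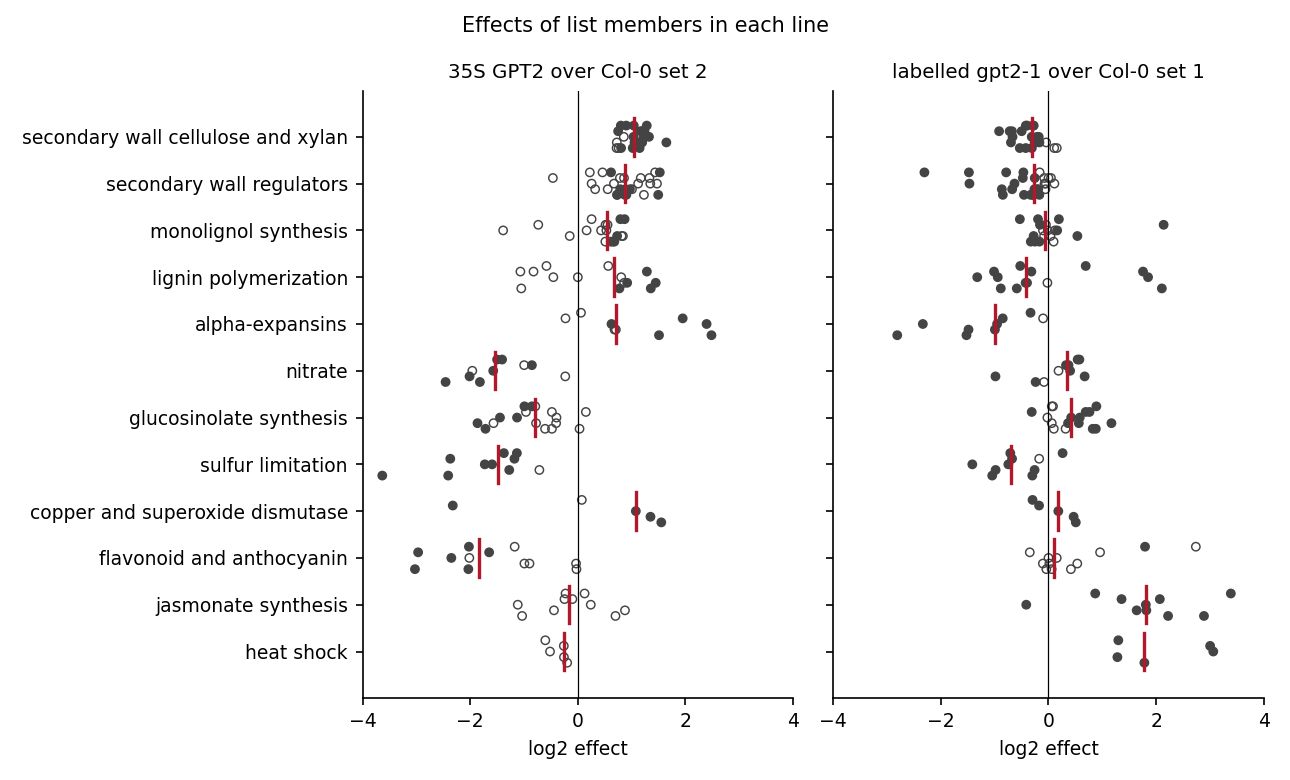
Log2 effects of the tested members of 12 gene lists in 35S GPT2 (left of each pair) and in the libraries labelled gpt2-1 (right), with filled points at an edgeR adjusted p under 0.05 and red lines at the median. The medians of the wall and expansin lists lie above 0 in 35S GPT2 and below it in the libraries labelled gpt2-1, those of the nitrate and glucosinolate lists the reverse, that of the sulfur list lies below 0 in both, and those of the jasmonate synthesis and heat shock lists are raised in the libraries labelled gpt2-1.

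Nitrate assimilation fell in 35S GPT2 and in part rose in the libraries labelled gpt2-1. Of 10 nitrate genes tested, 7 fell in 35S GPT2 and none rose, and 6 rose and 2 fell in the libraries labelled gpt2-1. The difference was negative for 7 and positive for 1, with a median of -1.99, and 5 were opposite responders, 4 or 5 whichever library was left out. NIA2, the main nitrate reductase, held 99.6, 76.1 and 80.6 CPM in 35S GPT2, against 435, 315 and 287 CPM in Col-0 set 2. It stood at 1588, 1671 and 1639.8 CPM in the libraries labelled gpt2-1, against 1030.1, 1007 and 953 CPM in Col-0 set 1. The 35S GPT2 libraries were the lowest and the libraries labelled gpt2-1 the highest of the 12, with effects of -2.01 (edgeR adjusted p = 0.000886) and 0.67 (edgeR adjusted p = 8.59e-12) and a difference of -2.72 (SE 0.21, edgeR adjusted p = 2.12e-06). NIR1, the nitrite reductase that acts next in the plastid, held 62.6, 45.5 and 48.0 CPM in 35S GPT2, against 160.3, 151 and 154 CPM in Col-0 set 2. Levels were 197, 209.6 and 185 CPM in the libraries labelled gpt2-1, against 142, 139 and 154 CPM in Col-0 set 1. The groups did not overlap, and the effects were -1.57 and 0.40 (edgeR adjusted p = 0.00112 and 4.23e-07).

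NIA1, the second nitrate reductase, held 4.38, 4.76 and 4.38 CPM in 35S GPT2, against 21.2, 28.6 and 23.8 CPM in Col-0 set 2. It had 274, 286 and 251 CPM in the libraries labelled gpt2-1, against 289.8, 286 and 259 CPM in Col-0 set 1. Its fall in 35S GPT2 (-2.46, edgeR adjusted p = 0.000707) had no counterpart in the other comparison, where the groups overlapped (-0.08, edgeR adjusted p = 0.198). The difference passed at -2.43 (edgeR adjusted p = 1.83e-06). AT1G25550, a MYB-like factor, held 16.7, 12.7 and 12.5 CPM in 35S GPT2, against 42.6, 40.8 and 36.1 CPM in Col-0 set 2. It held 226, 213 and 222 CPM in the libraries labelled gpt2-1, against 142, 151 and 139.9 CPM in Col-0 set 1. It was opposite, as were UPM1, which makes the sirohaem cofactor of nitrite reductase, and AT1G68670, another MYB-like factor. LBD37, a repressor of nitrate-responsive genes, was a shared responder and fell in both lines (-1.82 and -0.24).

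Most glucosinolate genes had a lower effect in 35S GPT2. Of 17 tested, 6 fell in 35S GPT2 (10 with replicate as a block) and none rose, 10 rose and 1 fell in the libraries labelled gpt2-1, and the difference was negative for 14 and positive for none (median -1.11). The 3 opposite responders stood for the chain elongation and entry steps of methionine-derived glucosinolates, all 3 were opposite whichever library was left out, and 5 genes were opposite with replicate as a block. MAM1, the methylthioalkylmalate synthase, held 94.4, 98.1 and 85.9 CPM in 35S GPT2, against 371, 336 and 307 CPM in Col-0 set 2. Its levels were 858, 816 and 779.5 CPM in the libraries labelled gpt2-1, against 616, 624 and 615 CPM in Col-0 set 1. The 35S GPT2 libraries were the lowest and the libraries labelled gpt2-1 the highest of the 12, with a difference of -2.27 (edgeR adjusted p = 7.69e-07). CYP79F1, the cytochrome P450 that commits the elongated amino acids, may share reads with its near-identical neighbour CYP79F2. It held 94.3, 81.5 and 100.1 CPM in 35S GPT2, against 298, 322 and 288 CPM in Col-0 set 2. It stood at 385, 366 and 327 CPM in the libraries labelled gpt2-1, against 207, 188 and 197 CPM in Col-0 set 1. Its effects were -1.72 (edgeR adjusted p = 0.000615) and 0.82 (edgeR adjusted p = 2.49e-12). BCAT4, the aminotransferase of the first step, held 97.1, 114 and 139 CPM in 35S GPT2, against 329, 297 and 329 CPM in Col-0 set 2. Levels were 617, 562 and 509 CPM in the libraries labelled gpt2-1, against 359, 353 and 386 CPM in Col-0 set 1. The difference was -2.07. CYP79B3, of the tryptophan-derived branch, had a difference of -1.70 (edgeR adjusted p = 1.31e-05) with an effect of -0.79 in 35S GPT2 that did not pass (edgeR adjusted p = 0.0784).

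The promoter of CYP79F1 (chr1:5608432-5608731, plus strand, TAIR10.1, RefSeq, 250 bases before to 50 after the start) is shown because AC elements were also frequent in this list, in 7 of 17 promoters (41.2%). Capitals mark ACCTACC near its end and the sugar response element read on the other strand, TGGATA, at 2 places:
CYP79F1: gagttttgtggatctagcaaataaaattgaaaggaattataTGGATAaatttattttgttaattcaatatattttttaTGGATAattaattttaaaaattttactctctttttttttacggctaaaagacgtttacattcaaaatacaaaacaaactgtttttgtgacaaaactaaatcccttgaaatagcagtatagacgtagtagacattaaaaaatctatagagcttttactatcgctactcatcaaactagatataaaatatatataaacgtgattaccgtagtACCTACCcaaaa

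**Figure D5:**
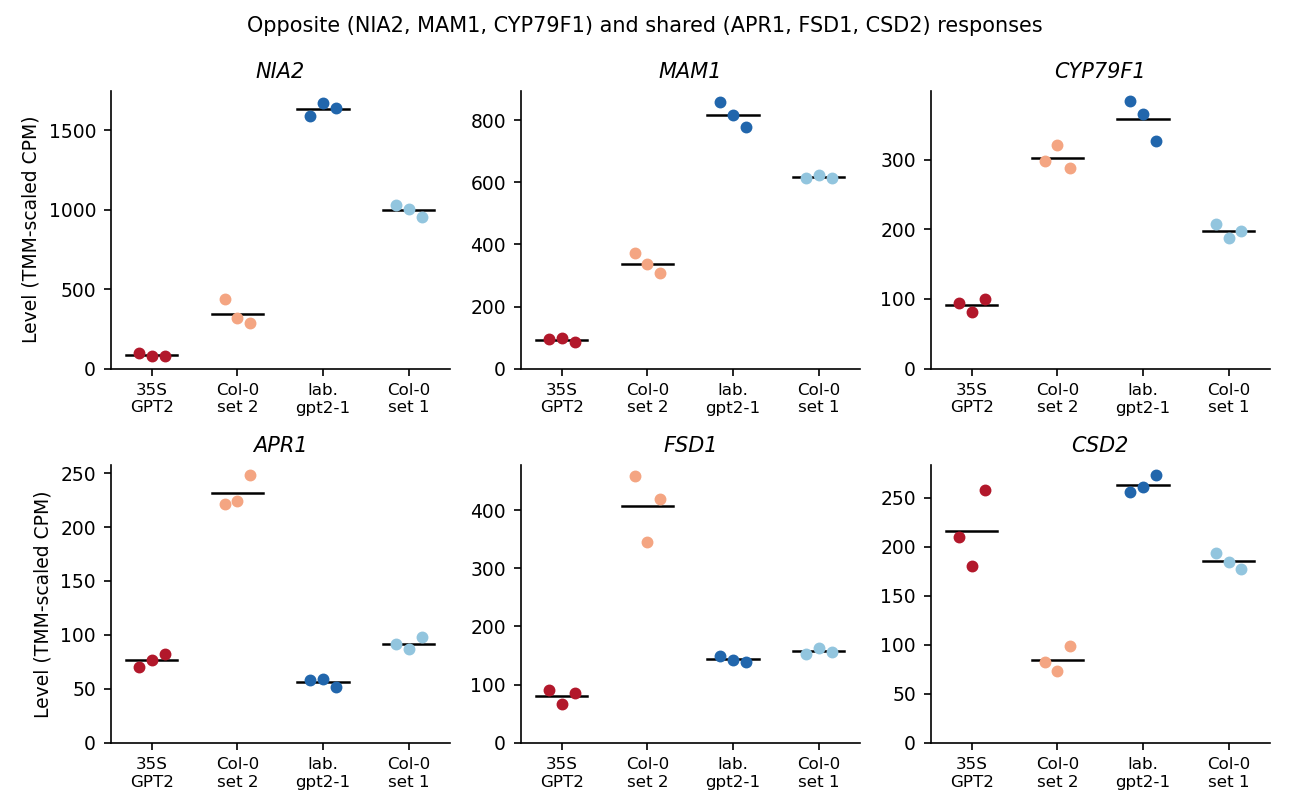
Levels in TMM-scaled CPM of NIA2, MAM1 and CYP79F1 (top row, lower in 35S GPT2 and higher in the libraries labelled gpt2-1) and of APR1, FSD1 and CSD2 (bottom row, shared responses), one point per library and bars at the mean of 3. APR1 and FSD1 lie below and CSD2 above the wild type in both lines.

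Sulfur genes mostly fell in both lines. Of 10 genes of the sulfur limitation list tested, 9 fell in 35S GPT2 and 8 fell in the libraries labelled gpt2-1, where 1 rose, and 7 fell in both (5 to 7 when a library was left out). The median effects were -1.48 in 35S GPT2 and -0.69 in the libraries labelled gpt2-1. The difference was negative for 7 of 10, so most fell further in 35S GPT2. APR1, an adenylylsulfate reductase that commits sulfate to reduction, held 70.4, 77.0 and 82.5 CPM in 35S GPT2, against 221, 224 and 248 CPM in Col-0 set 2. It had 58.2, 59.3 and 51.6 CPM in the libraries labelled gpt2-1, against 91.3, 86.8 and 97.9 CPM in Col-0 set 1. Neither pair overlapped, and the falls were -1.59 (edgeR adjusted p = 0.000707) and -0.75 (edgeR adjusted p = 4.73e-11). ATSDI1, a marker of sulfur deficiency that lowers glucosinolates, held 0.661, 0.453 and 1.095 CPM in 35S GPT2, against 11.2, 8.88 and 9.79 CPM in Col-0 set 2. It held 1.43, 1.23 and 1.48 CPM in the libraries labelled gpt2-1, against 2.80, 2.98 and 2.50 CPM in Col-0 set 1. It was low in every 35S GPT2 library, with a difference of -2.61 (edgeR adjusted p = 0.000346). LSU2, induced by low sulfur, held 9.75, 7.93 and 10.09 CPM in 35S GPT2, against 39.3, 25.5 and 29.2 CPM in Col-0 set 2. Its levels were 2.70, 2.57 and 2.85 CPM in the libraries labelled gpt2-1, against 6.37, 7.73 and 6.99 CPM in Col-0 set 1. Its falls of -1.73 and -1.42 did not pass the test of the difference (-0.34, edgeR adjusted p = 0.413).

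The sulfate transporter SULTR1;2 fell by more in 35S GPT2 (-2.41) than in the libraries labelled gpt2-1 (-0.30), and LSU3 (-2.37 and -0.68) and SHM7 (-1.37 and -0.71) did the same. APR3, the third reductase, was the exception with an opposite response. It held 60.9, 61.6 and 69.1 CPM in 35S GPT2, against 127, 139 and 154 CPM in Col-0 set 2. It stood at 51.4, 49.7 and 51.4 CPM in the libraries labelled gpt2-1, against 40.4, 40.1 and 43.4 CPM in Col-0 set 1. The groups did not overlap, but without TMM scaling no gene of the list was opposite and 8 were shared. In the fit of genes without opposite-strand exon overlap, 5 genes of the list were tested and all 5 were shared. APR2 fell in 35S GPT2 (-1.18), with an effect of -0.17 in the libraries labelled gpt2-1 (edgeR adjusted p = 0.106).

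Copper and superoxide dismutase genes shared their direction too. Of 5 tested, 3 rose and 1 fell in 35S GPT2, 3 rose and 2 fell in the libraries labelled gpt2-1, and 4 were shared responders whichever library was left out (3 without TMM scaling). FSD1, the iron superoxide dismutase of plastids, held 90.0, 67.0 and 86.2 CPM in 35S GPT2, against 458, 345 and 419 CPM in Col-0 set 2. Levels were 149, 142 and 139 CPM in the libraries labelled gpt2-1, against 153, 163 and 157 CPM in Col-0 set 1. It was far below the wild type in 35S GPT2 (-2.32, edgeR adjusted p = 0.000420) and slightly below it in the libraries labelled gpt2-1 (-0.18, edgeR adjusted p = 0.00277). CSD1, the cytosolic copper/zinc enzyme, held 480.3, 381 and 593 CPM in 35S GPT2, against 187, 135 and 175 CPM in Col-0 set 2. It had 99.6, 102 and 98.7 CPM in the libraries labelled gpt2-1, against 67.2, 74.2 and 63.3 CPM in Col-0 set 1. CSD2, its plastid counterpart, held 210.1, 181 and 258 CPM in 35S GPT2, against 82.9, 73.2 and 98.6 CPM in Col-0 set 2. Both rose in both lines, CSD1 by 1.55 and 0.51, CSD2 by 1.35 and 0.47. The copper chaperone CCS rose by 1.08 and 0.18. The regulator SPL7, which switches between these enzymes when copper is scarce, had a difference of 0.33 and did not pass (edgeR adjusted p = 0.204).

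Shared responders outside these lists included FRB1, an O-fucosyltransferase family protein. This gene held 15.4, 14.7 and 15.4 CPM in 35S GPT2, against 6.89, 7.70 and 7.80 CPM in Col-0 set 2. It held 742, 768 and 761 CPM in the libraries labelled gpt2-1, against 254, 265 and 249 CPM in Col-0 set 1. It rose by 1.02 and 1.52, at levels that differed greatly between the wild type sets. BGL2, a beta-1,3-glucanase of defence, held 39.6, 41.0 and 35.8 CPM in 35S GPT2, against 16.8, 20.5 and 22.2 CPM in Col-0 set 2. Its levels were 401, 389 and 442 CPM in the libraries labelled gpt2-1, against 162, 172 and 149 CPM in Col-0 set 1. It rose by 0.95 (edgeR adjusted p = 0.0200) and 1.31, and the difference did not pass (-0.41, edgeR adjusted p = 0.0873). TPPG, a trehalose phosphate phosphatase, held 173, 174 and 186 CPM in 35S GPT2, against 61.6, 83.1 and 85.2 CPM in Col-0 set 2. It stood at 335, 332 and 330.1 CPM in the libraries labelled gpt2-1, against 179.6, 179 and 189.8 CPM in Col-0 set 1. The rises of 1.21 and 0.82 did not differ by the test (0.34, edgeR adjusted p = 0.149), whereas CML41, a calmodulin-like protein, rose by more in 35S GPT2 (3.73 and 0.93).

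Among shared falls, AT1G80440, a kelch repeat protein, held 201, 163 and 204 CPM in 35S GPT2, against 443, 316 and 381 CPM in Col-0 set 2. Levels were 94.6, 87.4 and 86.3 CPM in the libraries labelled gpt2-1, against 175, 193 and 153 CPM in Col-0 set 1. Its effects were -1.002 and -1.0004, and the sign of the small difference (-0.04) was reversed without TMM scaling. AT4G31330 (-1.18 and -1.13), the receptor-like protein RLP27 (-0.98 and -1.51) and the zinc finger protein ZFP2 (-0.91 and -1.05) fell in both lines. BT2, a BTB protein of nutrient signalling, held 7.85, 9.51 and 8.06 CPM in 35S GPT2, against 27.9, 29.5 and 28.2 CPM in Col-0 set 2. It had 26.3, 24.8 and 26.2 CPM in the libraries labelled gpt2-1, against 34.9, 36.7 and 35.3 CPM in Col-0 set 1. It fell in both lines and further in 35S GPT2, with a difference of -1.31 (edgeR adjusted p = 5.07e-05).

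Several flavonoid genes fell in 35S GPT2. Of 12 tested, 6 fell in 35S GPT2 and none rose, and 1 rose and none fell in the libraries labelled gpt2-1, with a negative difference for 6 (median -2.41). TT4, the chalcone synthase at the entry of the pathway, held 14.8, 8.83 and 12.05 CPM in 35S GPT2, against 142, 71.5 and 86.3 CPM in Col-0 set 2. It held 2.70, 3.63 and 2.95 CPM in the libraries labelled gpt2-1, against 3.23, 2.73 and 3.38 CPM in Col-0 set 1. The fall in 35S GPT2 was -3.03 (edgeR adjusted p = 0.000707), the groups of the other comparison overlapped at low levels (-0.04, edgeR adjusted p = 0.872), and the difference was -3.01 (edgeR adjusted p = 8.20e-05). TT7, the flavonoid hydroxylase, held 4.30, 4.98 and 5.87 CPM in 35S GPT2, against 56.1, 30.3 and 33.9 CPM in Col-0 set 2. Its levels were 1.11, 1.51 and 1.74 CPM in the libraries labelled gpt2-1, against 2.02, 1.45 and 1.98 CPM in Col-0 set 1. It followed TT4, at -2.97 and -0.35. DFR, a reductase of the anthocyanin branch, held 13.4, 12.003 and 8.06 CPM in 35S GPT2, against 42.1, 49.3 and 43.6 CPM in Col-0 set 2. It stood at 0.530, 1.34 and 0.685 CPM in the libraries labelled gpt2-1, against 0.473, 0 and 0.233 CPM in Col-0 set 1. It was the opposite responder of this list at -2.02 and 1.79, though its levels in all 6 libraries of the gpt2-1 comparison were near the lower limit of detection. GSTF12, which serves anthocyanin transport, had a difference of -2.63 (edgeR adjusted p = 0.00823).

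Some sugar and phosphate genes fell in 35S GPT2. SWEET11, a sucrose exporter of phloem parenchyma, held 9.67, 12.003 and 9.62 CPM in 35S GPT2, against 36.1, 42.4 and 46.5 CPM in Col-0 set 2. Levels were 89.1, 82.0 and 78.5 CPM in the libraries labelled gpt2-1, against 66.0, 68.0 and 62.6 CPM in Col-0 set 1. It was opposite, with a difference of -2.39 (edgeR adjusted p = 1.54e-06). Of 13 sugar starvation genes tested, 3 fell in 35S GPT2 and none rose, 1 rose and 8 fell in the libraries labelled gpt2-1, and the difference was positive for 3 and negative for 3. TPS8 and TPS11, class II trehalose phosphate synthases, fell in 35S GPT2 (-0.90 and -1.10) with effects of -0.01 and -0.04 in the libraries labelled gpt2-1, and DIN10, a raffinose synthase family member, had a difference of 1.01. Of 10 phosphate starvation genes, 2 fell in 35S GPT2 and 5 rose and 2 fell in the libraries labelled gpt2-1, with 4 negative differences. Without TMM scaling 1 rose and 4 fell in the libraries labelled gpt2-1, with 1 negative difference. PAP17, an acid phosphatase, was opposite (-2.49 and 0.71), and PPCK1 fell in both lines. SQD2, PS2 and MGD2, of lipid and phosphate remodelling, had differences of -0.64, -0.67 and -0.82.

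Jasmonate genes set the lines apart through the libraries labelled gpt2-1, where 28.1% of all genes tested rose. Of 10 genes of jasmonate synthesis, none changed in 35S GPT2, 9 rose and 1 fell in the libraries labelled gpt2-1, and the difference was negative for 8 and positive for 1 (median -2.13). OPR3, the reductase of peroxisomes, held 30.8, 26.3 and 32.0 CPM in 35S GPT2, against 24.8, 32.5 and 37.9 CPM in Col-0 set 2. It had 1279.8, 1318 and 1357 CPM in the libraries labelled gpt2-1, against 314, 299 and 304 CPM in Col-0 set 1. The 35S GPT2 and Col-0 set 2 libraries overlapped at levels far below both other groups, and the effects were -0.10 (edgeR adjusted p = 0.863) and 2.07 (edgeR adjusted p = 8.34e-21), for a difference of -2.22 (edgeR adjusted p = 3.64e-06). AOS, JAR1 and LOX2 had differences of -1.64, -1.13 and -3.40. Of 16 genes of jasmonate response, none changed in 35S GPT2 (2 fell with replicate as a block) and 14 rose in the libraries labelled gpt2-1, and the difference was negative for 8 and positive for 1 (median -1.10). The 1 positive member, JAZ7, was at 0 in Col-0 set 2. The repressor TIFY7 held 42.0, 44.4 and 35.4 CPM in 35S GPT2, against 64.2, 59.7 and 56.7 CPM in Col-0 set 2. It held 935, 939.6 and 902 CPM in the libraries labelled gpt2-1, against 428, 411 and 443 CPM in Col-0 set 1. Its difference was -1.69 (edgeR adjusted p = 4.24e-06), and the related JAZ6, TIFY10B and JAZ3 had -1.32, -0.95 and -1.96.

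Most defence genes and all heat shock genes tested also rose in the libraries labelled gpt2-1, whereas touch and rapid stress genes moved in both directions there. Of all genes tested, 28.1% rose and 26.2% fell in these libraries. Of 19 salicylic acid and defence genes, 1 rose in 35S GPT2 and none fell, 16 rose and 2 fell in the libraries labelled gpt2-1, and the difference was negative for 11 and positive for 1 (median -0.85). WRKY18, a defence regulator, held 19.9, 19.3 and 18.8 CPM in 35S GPT2, against 10.2, 16.9 and 15.9 CPM in Col-0 set 2. Its levels were 1172, 1118 and 1156 CPM in the libraries labelled gpt2-1, against 265, 256 and 287 CPM in Col-0 set 1. Its difference was -1.72 (edgeR adjusted p = 3.49e-05), and those of WRKY33, of EDS16, which makes salicylic acid, and of SAG101 were -1.21, -1.37 and -1.05. Of 18 touch and rapid stress genes, 1 fell in 35S GPT2 and none rose, and 9 rose and 7 fell in the libraries labelled gpt2-1. There were 2 positive and 6 negative differences, among them -1.69 for the calmodulin-like TCH3 and -2.28 for CML38 on the negative side, and 1.74 for CBF1 and 2.25 for DREB1A, cold regulators, on the positive side. All 5 heat shock genes tested rose in the libraries labelled gpt2-1 and none changed in 35S GPT2, with a negative difference for each. HSP70 held 7.11, 4.98 and 9.31 CPM in 35S GPT2, against 13.4, 8.52 and 9.70 CPM in Col-0 set 2. It stood at 73.6, 67.4 and 72.2 CPM in the libraries labelled gpt2-1, against 9.21, 7.69 and 7.86 CPM in Col-0 set 1. The labelled gpt2-1 libraries stood apart from the other 9, with a difference of -3.55 (edgeR adjusted p = 1.83e-06), and HSFA2, HSP101 and MBF1C had -2.98, -2.05 and -1.90.

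Most clock genes changed in the libraries labelled gpt2-1, as did 54.3% of all genes tested. Of 18 tested, none changed in 35S GPT2 (1 with replicate as a block), where 2.53% of all genes did, and 8 rose and 9 fell in the libraries labelled gpt2-1, with 5 positive and 6 negative differences. PRR5, an evening repressor, held 26.6, 21.7 and 20.6 CPM in 35S GPT2, against 26.3, 28.7 and 28.0 CPM in Col-0 set 2. Levels were 5.404, 6.25 and 5.69 CPM in the libraries labelled gpt2-1, against 46.5, 42.7 and 40.9 CPM in Col-0 set 1. Its difference was 2.64 (edgeR adjusted p = 1.53e-06), and PRR3, ELF4 and PCL1 had 1.96, 4.25 and 0.94. Of 9 clock output genes, none changed in 35S GPT2 and 3 rose and 6 fell in the libraries labelled gpt2-1, with 3 positive and 2 negative differences. GRP7, an RNA-binding protein with a daily rhythm, held 5715, 4699 and 6728 CPM in 35S GPT2, against 6047, 4859 and 5939.6 CPM in Col-0 set 2. It had 41.7, 42.5 and 52.3 CPM in the libraries labelled gpt2-1, against 343, 340.0 and 316 CPM in Col-0 set 1. The level was far higher in Col-0 set 2 than in Col-0 set 1, and the effects were 0.03 and -2.91, for a difference of 2.90 (edgeR adjusted p = 1.59e-06). FKF1, CDF3 and CDF2 had differences of 2.25, 1.00 and -0.60. The labels give no hour of harvest, and the part of harvest time in these values was not tested.

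Few genes next to GPT2 in plastid carbon use were called in 35S GPT2, where 2.53% of all genes were. In the libraries labelled gpt2-1, 28.1% of all genes tested rose and 26.2% fell. Of 10 plastid translocators, GPT2 alone changed in 35S GPT2, and 3 rose and 4 fell in the libraries labelled gpt2-1. The difference was positive for 2 and negative for 1 (4 and none without TMM scaling). GPT1, the translocator most like GPT2, held 49.3, 46.9 and 46.4 CPM in 35S GPT2, against 50.3, 39.2 and 40.0 CPM in Col-0 set 2. It held 24.1, 21.8 and 19.2 CPM in the libraries labelled gpt2-1, against 28.3, 28.0 and 27.7 CPM in Col-0 set 1. The 35S GPT2 and Col-0 set 2 libraries overlapped, and the difference was 0.52 (edgeR adjusted p = 0.0418). The xylulose phosphate translocator AT5G17630 had a difference of 1.04, and the ATP carrier ATNTT2 had -0.58.

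Shares of all genes tested that changed were 2.53% in 35S GPT2 and 54.3% in the libraries labelled gpt2-1. Of 16 starch synthesis genes, none changed in 35S GPT2, 2 rose and 8 fell in the libraries labelled gpt2-1, and 2 had a negative difference. With replicate as a block 4 fell in 35S GPT2 and 5 had a negative difference. Those called without the block were GBSS1, the granule-bound starch synthase, and SS3. GBSS1 held 10.9, 6.34 and 4.38 CPM in 35S GPT2, against 21.0, 16.6 and 19.9 CPM in Col-0 set 2. Its levels were 41.9, 44.5 and 42.2 CPM in the libraries labelled gpt2-1, against 20.8, 18.4 and 20.3 CPM in Col-0 set 1. Neither pair overlapped, its effect in 35S GPT2 was -1.39 (edgeR adjusted p = 0.0518), and the differences were -2.49 and -1.06. Of 17 starch degradation genes, none changed in 35S GPT2, 3 rose and 11 fell in the libraries labelled gpt2-1, and 4 differences were positive and 3 negative. With replicate as a block 1 rose and 4 fell in 35S GPT2 and 8 differences were positive, and 1 to 7 were when a library was left out (1 without labelled gpt2-1 replicate 2, 7 without 35S GPT2 replicate 2). BAM1, a beta-amylase, held 106, 74.7 and 109 CPM in 35S GPT2, against 115, 97.4 and 115 CPM in Col-0 set 2. It stood at 1020.4, 1054 and 1076 CPM in the libraries labelled gpt2-1, against 379, 399 and 371 CPM in Col-0 set 1. Its difference was -1.62 (edgeR adjusted p = 3.88e-05), and the debranching enzyme ISA3 had 1.00 and the amylases BAM5 and CT-BMY had -3.33 and -0.93.

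Of all genes tested, 2.53% changed in 35S GPT2 and 54.3% in the libraries labelled gpt2-1. By number changed, oxidative pentose phosphate genes did not stand apart. Of 18 oxidative pentose phosphate genes, 1 fell in 35S GPT2, 3 rose and 7 fell in the libraries labelled gpt2-1, and 3 differences were positive and 4 negative (8 and 1 without TMM scaling). They included 0.52 for the dehydrogenase G6PD6, 0.55 for the transketolase AT2G45290, -1.31 for PGL5 and -0.70 for the dehydrogenase AT5G41670. None of 25 photosystem and light harvesting genes changed in 35S GPT2, 13 fell in the libraries labelled gpt2-1, and 5 differences were positive, among them 0.71 for LHCA4, 0.78 for PSAH2 and 0.92 and 0.93 for the near-identical LHCB2.1 and LHCB2.2. With replicate as a block 6 rose in 35S GPT2 and 15 differences were positive, and without the 2 shallowest libraries 6 and 19. Without TMM scaling there were 16 positive differences, and 24 genes fell in the libraries labelled gpt2-1. Positive differences numbered 4 to 10 when a library was left out (10 without Col-0 set 2 replicate 1). Of 12 genes of Rubisco and the Calvin cycle, none changed in 35S GPT2, and 3 rose and 1 fell in the libraries labelled gpt2-1. Without TMM scaling 1 rose and 9 fell in the libraries labelled gpt2-1. Only the aldolase FBA2 had a called difference (-0.91, edgeR adjusted p = 0.0443), against 3 genes with replicate as a block. The medians of the differences were -0.17 for starch synthesis, -0.07 for the pentose phosphate pathway and -0.20 for the Calvin cycle, and without TMM scaling all 3 turned positive (0.08, 0.19 and 0.07).

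In the libraries labelled gpt2-1, 28.1% of all genes tested rose and 26.2% fell, and 2.53% changed in 35S GPT2. Of 16 drought, cold and ABA genes, none changed in 35S GPT2, 6 rose and 6 fell in the libraries labelled gpt2-1, and 4 differences were positive and 2 negative. They were led by HAI2 (1.26), COR15A (1.29) and COR15B (1.43) on the positive side and NCED3 (-1.88), an enzyme of ABA synthesis, on the negative side. Of 6 mitotic genes, none changed in 35S GPT2 and 4 fell in the libraries labelled gpt2-1, and no difference passed. A positive difference passed for 3 genes without Col-0 set 2 replicate 1, for 4 without the 2 shallowest libraries and for 2 in DESeq2. SYP111, of the cell plate, had the smallest adjusted p (1.29, edgeR adjusted p = 0.0530).

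Marker genes of stem tissues are described beside these groups. Of 5 vessel markers, 2 rose in 35S GPT2 and 2 fell in the libraries labelled gpt2-1, and these were XCP1 and XCP2, the cysteine peptidases of dying xylem, of which neither passed in 35S GPT2 without 35S GPT2 replicate 1. XCP1 held 82.5, 60.2 and 72.8 CPM in 35S GPT2, against 15.5, 28.9 and 40.2 CPM in Col-0 set 2. Levels were 41.3, 42.1 and 36.4 CPM in the libraries labelled gpt2-1, against 74.9, 70.2 and 73.1 CPM in Col-0 set 1. Both were opposite, with differences of 2.16 and 1.602, and the nuclease RNS3 had 1.14 (edgeR adjusted p = 0.0308). Of 8 epidermis markers, 1 rose in 35S GPT2 (3 with replicate as a block), 1 rose and 6 fell in the libraries labelled gpt2-1, and 5 differences were positive. CYP96A15, a wax hydroxylase of stem epidermis, held 160.1, 209 and 133 CPM in 35S GPT2, against 51.6, 77.2 and 61.4 CPM in Col-0 set 2. It had 45.2, 47.5 and 41.4 CPM in the libraries labelled gpt2-1, against 114, 97.9 and 106 CPM in Col-0 set 1. It was opposite (1.39 and -1.29), and the wax genes CER3, WSD1 and CER1 had differences of 0.91, 3.77 and 1.25. The epidermis markers summed to 1768 to 2095 CPM in 35S GPT2, 1589 to 1965 in Col-0 set 2, 1371 to 1509 in the libraries labelled gpt2-1 and 2309 to 2454 in Col-0 set 1.

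The 5 cambium markers all fell in the libraries labelled gpt2-1 and none changed in 35S GPT2, with positive differences for WOX4 (1.27) and HB-8 (0.68). Their sum was 230 to 258 CPM in 35S GPT2, 221 to 254 in Col-0 set 2, 149 to 168 in the libraries labelled gpt2-1 and 222 to 232 in Col-0 set 1. Of 7 phloem markers, SWEET11 alone had a called difference, with 1 fall in 35S GPT2 and 1 rise and 4 falls in the libraries labelled gpt2-1. None of 7 flower markers reached the level needed for the test, and they summed to 0 to 6.15 CPM. The part of these tissue markers in the wall results was not tested.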

How the data were processed

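RNA from stems was sequenced in 12 samples of 4 groups used here, each sample 1 table shared by 4 sequencing records. What the authors deposited are raw read counts, with no normalization. The submitters' processing notes name STAR, DESeq2 and TAIR10. How genes were counted, with which strand setting and annotation, is not given in the sources used here. From each table of 38186 rows, 219 rows lacking a gene name (0.000322% to 0.00117% of counts) were dropped. Gene names, exons and sequences came from RefSeq TAIR10.1.

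In 5 tables counts and gene labels were out of step: the rank correlation with the first Col-0 set 1 library was 0.0971 to 0.108 as deposited and 0.884 to 0.925 in the row order of the first 35S GPT2 table, which was used. With that order shifted by 1 row, the correlation with the first 35S GPT2 library was at most 0.247. As deposited, the GPT2 row of Col-0 set 2 repeated the counts of Col-0 set 1, and AT1G64190, where these values fall in the other order, was left out.

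Effects and their difference were tested with edgeR 4.0.16 (R 4.3.3, limma 3.58.1): quasi-likelihood F test, TMM scaling, Benjamini-Hochberg adjustment over all genes tested, adjusted p under 0.05. The difference came from a fit of 12 samples and each effect from its 6 samples. TMM factors were 0.839 to 0.846 in gpt2-1 and 1.00 to 1.16 in the other groups. Replicates differed beyond counting error in every pair of these 12 samples (chi-square over its degrees of freedom 2.16 to 33.4). The scripts were tested on simulated data. Same-numbered 35S GPT2 and Col-0 set 2 libraries deviated together (r = 0.123, 0.324 and 0.157 across genes), against -0.286 to 0.0818 for unlike numbers. The labels name no pairing, and the main fits had no block. By a rule of r over 0.1 in these same counts, replicate numbers were taken to pair these libraries in an alternative fit only. A fit with replicate as a block was an alternative beside DESeq2 1.42.0, limma voom, other scalings and filters, and each library left out.

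Opposite and shared genes passed both lines' own tests. Named first were GPT2 and HCT. Then came, among genes with at least 5 CPM, at least 3 counts in every group and no opposite-strand exon, the 6 largest positive and negative differences without overlap between groups in at least 1 comparison, and the 5 leading opposite and shared genes each way. Up to 4 genes of each of 33 lists (423 of 470 loci tested), by smallest p, and further opposite or shared members completed the text. The members, lists and rules were chosen with earlier results of these data known.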

Additional observations from a re-analysis of the deposited data

Results flagged for a closer look

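The effects of the lines differed for 3560 genes by the test of the difference itself, and this is a difference between 2 effects under the same contrast with wild type, described above. For HCT, the difference of effects was 0.63 on the log2 scale (SE 0.18, edgeR adjusted p = 0.0231), with an effect of 0.51 in 35S GPT2 and -0.16 in the libraries labelled gpt2-1. With 3 samples a group, single samples far from their group were not looked for.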

How the results depend on the processing

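The count of genes with different effects was 5632 without the 2 shallowest libraries (35S GPT2 replicate 2 and Col-0 set 2 replicate 1, an alternative chosen after seeing the data) and 0 with gene labels as deposited. It was 2679 to 4728 when a library was left out. Genes changed in 35S GPT2 numbered 920 in DESeq2, 1923 with 1 spread for all groups, 1145 with the replicate block, 1005 without the 2 shallowest libraries, 0 as deposited, and 117 to 597 when a library was left out (117 without 35S GPT2 replicate 1, 293 and 193 without replicates 2 and 3, 597, 244 and 226 without Col-0 set 2 replicates 1, 2 and 3). Genes changed in the libraries labelled gpt2-1 numbered 3682 with 1 spread for all groups and 12279 without TMM scaling (2745 higher and 9534 lower). Opposite genes numbered 466 in DESeq2, 437 with 1 spread, 577 with the replicate block, 538 without the 2 shallowest libraries, 0 as deposited and 69 to 351 when a library was left out. Shared genes numbered 166 in DESeq2, 101 without a filter on low counts, 242 with 1 spread, 211 with the replicate block, 186 without the 2 shallowest libraries, 0 as deposited and 21 to 97 when a library was left out (21 without 35S GPT2 replicate 1, 97 without Col-0 set 2 replicate 1). Of the 275 opposite genes, 274 were called opposite with the replicate block, 265 in DESeq2 and 201 without TMM scaling. With 1 spread for all groups 150 were, and 68 without 35S GPT2 replicate 1. Whether called or not, 269 had opposite signs without TMM scaling.

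The GPT2 difference was -0.10 in DESeq2 and -0.036 without Col-0 set 2 replicate 3, against 0.53, and it passed the test at 1.32 without Col-0 set 2 replicate 1 and at 1.30 without the 2 shallowest libraries. The range when a library was left out was -0.036 to 1.32. The HCT difference no longer passed at 0.58 to 0.64 without 1 of 5 libraries and stood at 11.5 as deposited (edgeR adjusted p = 0.118), with a range of 0.53 to 0.77 when a library was left out. Among single genes, 4152 results kept their direction and side of the threshold, 65 newly passed, 100 no longer passed and 10 reversed. The reversed differences were near 0. Without TMM scaling they were AT4G31330 at 0.16, AT1G80440 at 0.22, SBPASE at 0.011 and PP2-A1 at 0.064. AT1G80440 also reversed at 0.18 without the 2 shallowest libraries and ranged from -0.15 to 0.081 when a library was left out, SEOa from -0.032 to 0.35 and BFN1 from -0.061 to 0.56. The labels as deposited were not run for other single genes. In the gpt2-1 comparison, same-numbered libraries did not deviate together (r = -0.0305, 0.0281 and -0.00873), and the block gave 9203 genes. The cause of these changes was not tested. Library totals ranged from 3827816 to 31713084 counts in the 35S GPT2 comparison, and the part of depth in these changes was not tested.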

Other observations

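Further groups stood out among the opposite and shared genes and were chosen after their values were seen, so they are described without a test. Only genes already in these classes were grouped, here and in the next paragraph. Other members of the same pathways were not counted, so the groups do not show how whole pathways responded. Of the 44 genes that fell in both lines, 8 serve the transport or chelation of zinc and iron: the transporters ZIP1, ZIP4, ZIP5 and IRT3, the zinc-exporting ATPase HMA2, the nicotianamine synthases NAS1 and NAS4 and the citrate exporter FRD3. Their effects were -2.41 to -0.99 in 35S GPT2 and -0.83 to -0.20 in the libraries labelled gpt2-1, and for 5 of the 8 the difference of effects passed the test. Of the 90 genes lower in 35S GPT2 and higher in the libraries labelled gpt2-1, 6 elongate methionine for glucosinolates (BCAT4, MAM1, IPMI1, IPMI2, IIL1 and IMD1), with effects of -1.86 to -1.12 and 0.16 to 0.58. A further 5 activate or reduce sulfate (APS1, APK, AKN2, SIR and APR3), with effects of -1.21 to -0.99 and 0.26 to 0.85. These stand beside the sulfur limitation genes that fell in both lines.

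Among the 185 genes higher in 35S GPT2 and lower in the libraries labelled gpt2-1, UXS3, UXS5 and UXS6 make UDP-xylose, the sugar donor of xylan, with effects of 0.80 to 1.52 and -0.49 to -0.32. ACLA-1, ACLA-2 and ACLB-2 encode subunits of ATP citrate lyase, which makes acetyl-CoA in the cytosol, with effects of 0.77 to 0.96 and -0.40 to -0.18. MAT3, SAHH2, ADK2, MTHFR2 and SHM4 supply and recycle the methyl donor of lignin and xylan methylation, with effects of 0.72 to 0.94 and -0.45 to -0.30. The suberin gene FACT and the acyltransferase gene GPAT1 were lower in 35S GPT2 and higher in the libraries labelled gpt2-1, at low levels for FACT.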
